A study of Mus musculus with 20 samples.

Results

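The cyclins and kinases of G1 and S were followed in lenses labelled E2F1-/- and E2F2-/- with floxed E2F3 and a Cre transgene. The 10 genes were Ccnd1, Ccnd2, Ccnd3, Cdk4, Cdk6, Ccne1, Ccne2, Cdk2, Ccna2 and Cdc25a. The genes were chosen by name, and every probe set that the platform annotation assigned to a single gene of this set was taken, which gave 29 of the 45037 probe sets that are not array controls, and 10 of 18193 genes. The study hybridised lens RNA of 20 mice, 1 array each, in 4 groups of 5. The triple knockout (TKO) groups had the genotype Cry-Cre E2F1-/- E2F2-/- E2F3f/f at embryonic stage E17.5 or in newborns (P0), and the control groups of both stages were E2F2-/-. The E2F2 deletion was thus common to all 4 groups, while the Cre transgene, named for a crystallin promoter, was in TKO mice only. The label f/f marks E2F3 as floxed, so its deletion depended on Cre, and the cells in which it occurred were not measured. The series' design text asks what leads to the collapse of these lenses in newborns. Both lenses of a mouse were dissected whole, and the labels call the cells epithelial, although the 10 lens fibre markers also lay above the array median in all 20 arrays (Cryaa, the crystallin alpha A gene, at 14.78 to 14.89).

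Cells enter S phase through a relay of cyclin-dependent kinases. Cyclins D1, D2 and D3 bind Cdk4 and Cdk6 in response to growth signals and begin to phosphorylate the retinoblastoma protein and its relatives, which then release E2F factors. E2F factors in turn activate genes such as those of cyclin E1, cyclin E2, cyclin A2 and Cdc25a, and Cdk2 with cyclin E and then cyclin A drives replication. In the lens, dividing cells are found in the epithelium at the front, and cells leave the cycle as they become fibres.

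Values are the deposited log2 expression values. A group mean is given with the SD of its 5 arrays, and a difference with its standard error. Array medians lay between 5.05 and 5.25, and precision is limited by the number of arrays. Across the genes tested, the median within-group SD was 0.204 in TKO E17.5, 0.0963 in control E17.5, 0.15 in TKO P0 and 0.103 in control P0. TKO E17.5 replicates 24 and 27 stood apart, with a higher mean correlation to control E17.5 arrays (0.990 and 0.993) than to the other TKO E17.5 arrays (0.985 and 0.988), so E17.5 results are also given without them. Because these arrays were picked for their likeness to controls, leaving them out tends to widen the differences by construction, and calls gained in that way are a description, not added support. Replicate 28, which stayed in those fits, had the lowest mean correlation of the TKO E17.5 arrays both to its own group (0.981) and to controls (0.980). The E2f1 probe set 1417878_at lay at 7.55 to 7.95 in TKO and 7.15 to 7.24 in control lenses at E17.5, and at 7.62 to 7.91 in TKO and 7.15 to 7.52 in control lenses at P0. The probe set 1431875_a_at of E2f1 also lay higher in TKO lenses, with means of 7.31 in TKO and 6.69 in control lenses at E17.5 and of 7.34 in TKO and 6.78 in control lenses at P0, while the dim 1447840_x_at was at 3.98 in TKO and 4.26 in control lenses at E17.5. The brighter E2f3 probe set, 1434564_at, overlapped between genotypes, with means of 8.38 in TKO and 8.46 in control lenses at E17.5 and 7.95 in TKO and 8.01 in control lenses at P0. The dimmer one, 1427462_at, had means of 5.65 in TKO and 5.50 in control lenses at P0. The E2f2 probe set 1436434_at, from a gene deleted in all groups, had means of 6.22 in TKO and 6.31 in control lenses at E17.5. Which part of E2f1, E2f2 or E2f3 the probes cover could not be read from the annotation, so these levels check neither the deletion nor the labels. All 10 genes had at least 1 probe set bright enough to test. Of the 29 probe sets, 25 were tested, and 1438805_at of Ccnd3, 1460291_at of Cdk6, 1447617_at of Cdk2 and 1445995_at of Cdc25a were too dim. The Ccne2 probe set 1422535_at and the Ccnd2 probe set 1416124_at were above the array median in all groups but control P0, and passed the filter through those groups.

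RefSeq promoters (build GRCm38.p6, 250 bases before to 50 after the start site that the promoter table uses) were held for 6 of the 10 genes, namely Ccnd3, Cdk4, Cdk6, Ccne1, Cdk2 and Cdc25a. They were searched on both strands for the E2F consensus words TTTCCCGC, TTTCGCGC, TTTGCCGC and TTTGGCGC, a promoter with several matches counting once. A match was present in 744 of all 32851 promoters of this length, or 2.26%. Among the genes described here, Cdk2 and Cdc25a held a match, and their promoters are printed because these genes also had the largest TKO minus control differences at both stages in the test by gene. Capitals mark the match, which is TTTGGCGC at -67 to -60 from that start site of Cdc25a, which lies downstream of the outermost start of the gene (chr9:109875329-109875628, plus strand) and TTTCCCGC on the opposite strand at -140 to -133 from that of Cdk2 (chr10:128705002-128705301, minus strand). A match is a description of the letters and not evidence of binding.
Cdc25a: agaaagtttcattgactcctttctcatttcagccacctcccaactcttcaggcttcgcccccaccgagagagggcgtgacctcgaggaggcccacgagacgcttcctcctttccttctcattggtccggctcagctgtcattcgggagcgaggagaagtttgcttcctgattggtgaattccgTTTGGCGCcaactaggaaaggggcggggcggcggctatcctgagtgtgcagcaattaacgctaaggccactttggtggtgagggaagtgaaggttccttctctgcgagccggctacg
Cdk2: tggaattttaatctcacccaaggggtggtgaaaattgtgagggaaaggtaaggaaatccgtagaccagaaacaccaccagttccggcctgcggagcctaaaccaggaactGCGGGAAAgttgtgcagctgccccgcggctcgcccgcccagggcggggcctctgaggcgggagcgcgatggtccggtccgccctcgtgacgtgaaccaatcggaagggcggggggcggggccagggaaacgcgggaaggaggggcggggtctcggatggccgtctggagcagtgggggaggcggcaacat

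At birth, 9 of the 10 genes were higher in TKO than in control lenses and none was lower. A gene was called when its adjusted p in limma was below 0.05. Over all 11859 genes tested, 20.2% were called higher and 19.4% lower at P0. The median log2 difference of the 10 genes was 0.66, beside -0.01 over all genes. The differences were largest for Cdc25a and Cdk2, while Ccnd3 was the gene not called. In 5 of the 10 (Ccnd1, Cdk6, Ccne2, Cdk2 and Cdc25a) every TKO array lay above every control array, as in 13.2% of all genes. At E17.5, none of the 10 genes was called higher or lower by limma, where 2.89% of all genes were called. An unadjusted p below 0.05 was found for 4 of the 10 (Ccnd2, Cdk6, Cdk2 and Cdc25a, all higher) and for 25.6% of all genes. All 10 differences at E17.5 were positive, with a median of 0.30 beside -0.03 over all genes. The sign of Ccne1 turned after quantile normalization (-0.01) and without TKO replicate 24 (-0.01) or 28 (-0.09). That of Ccna2 turned without TKO replicate 25 (-0.07) or 26 (-0.01), without control replicate 10 (-0.01) and with a retina covariate described later (-0.14), which also turned Ccnd1 (-0.05). In bulk lens RNA, more cells of a type and more RNA per cell cannot be told apart.

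**Figure D1:**
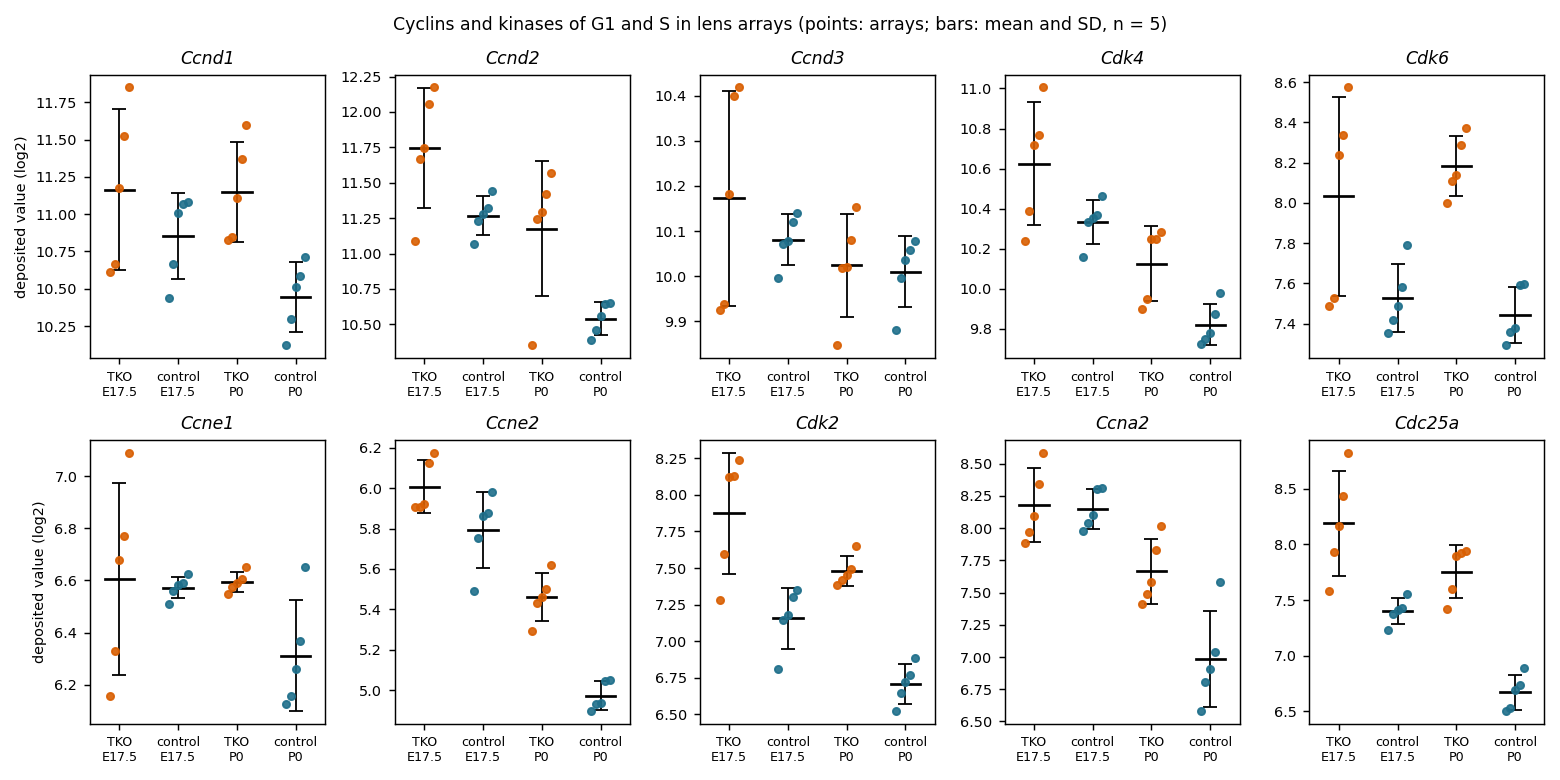
Deposited log2 values (vertical axes, 1 scale per gene) of the brightest probe set of each of the 10 genes, for TKO (orange) and control (blue) arrays at E17.5 and P0; points are arrays, and black bars give the mean and SD of 5 arrays. TKO P0 arrays lie above all control P0 arrays for Ccnd1, Cdk6, Ccne2, Cdk2 and Cdc25a, and TKO E17.5 arrays spread widely.

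**Figure D2:**
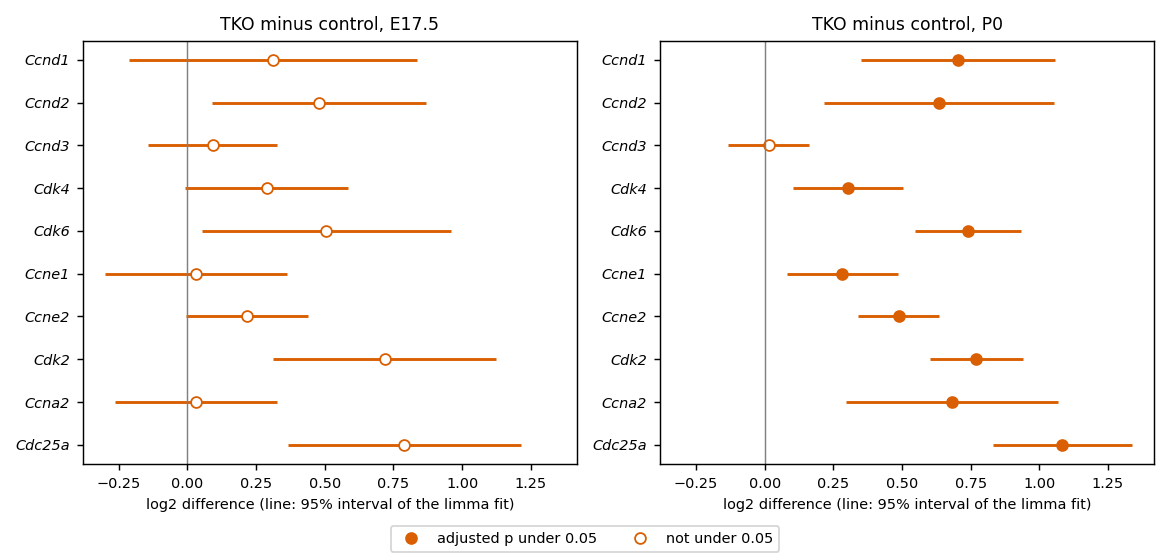
TKO minus control log2 differences at E17.5 (left) and P0 (right) for the 10 genes; points are limma estimates, lines their 95% intervals, and filled points have an adjusted p below 0.05. At P0, 9 of 10 points are filled, and at E17.5 none is.

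Of the D-type cyclins, Ccnd1 and Ccnd2 were higher in TKO lenses at P0 and Ccnd3 was not called. Ccnd1 (cyclin D1) had values of 10.84, 11.37, 10.83, 11.60 and 11.11 in TKO P0 replicates 17, 18, 19, 21 and 22, against 10.71, 10.58, 10.51, 10.30 and 10.12 in control P0 replicates 1, 5, 6, 7 and 8. The lowest TKO array was above the highest control array, by a small margin. The difference was 0.70 ± 0.16 (SE, n = 5 each, limma adjusted p 0.00594), or 1.63-fold, and all 3 Ccnd1 probe sets were called and did not overlap. At E17.5, Ccnd1 was at 10.61, 11.85, 11.52, 10.66 and 11.18 in TKO replicates 24 to 28 and at 11.01, 11.08, 10.44, 11.07 and 10.67 in control replicates 10, 11, 12, 13 and 15. The groups overlapped, since TKO replicates 24 and 27 lay inside the control range, and the difference of 0.31 ± 0.24 was not called (adjusted p 0.423). Without these 2 arrays it was 0.66 ± 0.19 and called (adjusted p 0.0325).

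Ccnd2, the cyclin D2 gene, is measured by 7 probe sets, of which 1434745_at was the brightest. Its P0 values were 11.29, 11.42, 11.24, 10.35 and 11.57 in TKO replicates 17, 18, 19, 21 and 22, against 10.39, 10.56, 10.46, 10.65 and 10.65 in the control arrays. A single TKO array, replicate 21, lay below every control, and the others lay above all of them. The difference was 0.63 ± 0.19 (adjusted p 0.0222), and without TKO replicate 21 it was 0.84 ± 0.08 (adjusted p 7.62e-05). Leaving out TKO replicate 18 instead ended the call, at 0.57 (adjusted p 0.0541). Replicate 21 was the lowest TKO P0 array in all 7 probe sets. In 5 of the 7, tested as single probe sets over 23863 probe sets, Ccnd2 was called higher at P0 (18.8% of all probe sets were higher and 19.7% lower), and 1416123_at and 1448229_s_at were not.

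The probe sets of Ccnd2 also differed in the size of the change. For 1416124_at, TKO P0 values were 6.70, 6.27, 6.55, 5.67 and 6.66, against 5.12, 4.90, 4.95, 4.77 and 5.20 in control P0 arrays. The groups did not overlap, and the difference was 1.38 ± 0.18 (adjusted p 0.000368), while the other 6 probe sets gave 0.47 to 0.95. At E17.5 the same probe set had 7.19, 7.42, 7.41, 6.49 and 6.17 in TKO replicates 24 to 28, against 5.41, 5.60, 5.66, 5.64 and 5.91 in controls. All TKO arrays again lay above all controls, with a difference of 1.29 ± 0.23 (adjusted p 0.0109), or 1.36 ± 0.26 without replicates 24 and 27 (adjusted p 0.0078). Of the other Ccnd2 probe sets at E17.5, 1430127_a_at was called (0.71, adjusted p 0.0400, or 0.91 without replicates 24 and 27), and the brightest, 1434745_at, gave 0.48 ± 0.18 in the test by gene (adjusted p 0.131). Without TKO replicates 24 and 27 that value was 0.70 ± 0.13 and called (adjusted p 0.00584). Without replicate 27 alone it was 0.64 ± 0.12 (adjusted p 0.0152).

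**Figure D3:**
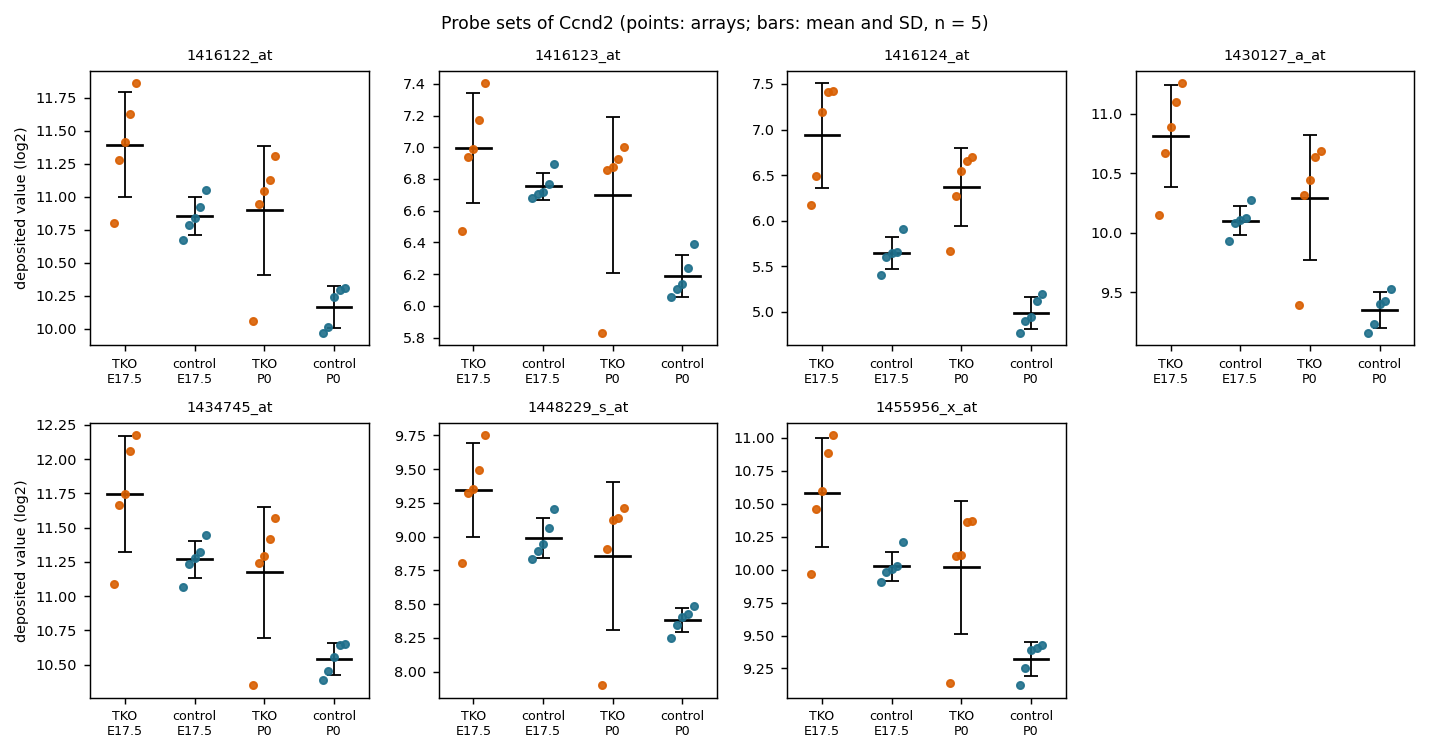
Deposited log2 values of the 7 tested Ccnd2 probe sets (1 panel each, vertical axes differ) in TKO (orange) and control (blue) arrays at E17.5 and P0; points are arrays, black bars the mean and SD of 5 arrays. The lowest TKO P0 point is replicate 21 in each panel, and 1416124_at has no overlap between TKO and control at either stage.

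Ccnd3 (cyclin D3) was not called at either stage. It had 10.02, 10.08, 10.02, 9.85 and 10.15 in the TKO P0 arrays and 9.997, 10.06, 10.04, 10.08 and 9.88 in the control P0 arrays. The groups overlapped throughout, and the difference was 0.01 ± 0.07 (95% interval -0.13 to 0.16, adjusted p 0.888). Its sign turned negative, down to -0.03, under quantile normalization, median centring or averaging of its probe sets, and to -0.02 without TKO replicate 22 or control replicate 8. At E17.5 the means were 10.17 ± 0.24 in TKO and 10.08 ± 0.06 in control lenses, a difference of 0.09 ± 0.11 (adjusted p 0.605), or 0.17 ± 0.11 without replicates 24 and 27 (adjusted p 0.284). The second tested probe set, 1444323_at, gave -0.12 at P0 and -0.06 at E17.5 and was not called.

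Both kinase partners of the D cyclins were higher in TKO than in control lenses at P0. Cdk6 was at 8.14, 8.37, 8.11, 8.0 and 8.29 in TKO P0 arrays and at 7.36, 7.59, 7.60, 7.38 and 7.29 in control P0 arrays. All TKO arrays were higher, by 0.74 ± 0.09 on average (1.67-fold, adjusted p 0.000255), and the other tested probe set gave 0.73 ± 0.10. At E17.5, Cdk6 had 7.53, 8.57, 8.33, 7.49 and 8.24 in TKO replicates 24 to 28, against 7.35, 7.79, 7.49, 7.58 and 7.42 in controls. Replicates 25, 26 and 28 stood above all controls and 24 and 27 among them. The difference of 0.51 ± 0.21 was not called (adjusted p 0.158) and became 0.86 ± 0.12 without replicates 24 and 27 (adjusted p 0.00188).

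Cdk4 was at 9.95, 10.25, 9.90, 10.25 and 10.28 in TKO P0 arrays, against 9.75, 9.87, 9.72, 9.78 and 9.98 in control P0 arrays. The groups overlapped through control replicate 8, the highest control. The difference was 0.30 ± 0.09 (1.23-fold, adjusted p 0.0221), and its 3 probe sets were all called. The call was lost without TKO replicate 18 or control replicate 6 or 7, at 0.27 to 0.29 (adjusted p 0.0506 to 0.0542), and in the fit on all 20 arrays (adjusted p 0.0536). At E17.5 the means were 10.62 ± 0.31 in TKO and 10.33 ± 0.11 in control lenses, a difference of 0.29 ± 0.13 (adjusted p 0.204), or 0.50 ± 0.10 without replicates 24 and 27 (adjusted p 0.00713).

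Both cyclin E genes, whose proteins activate Cdk2 at the entry to S phase, were higher in TKO than in control lenses at P0. Ccne2 was at 5.46, 5.43, 5.50, 5.29 and 5.62 in TKO P0 arrays, against 4.93, 5.04, 4.94, 4.90 and 5.05 in control P0 arrays. There was no overlap, and the difference was 0.49 ± 0.07 (1.40-fold, adjusted p 0.000481). At E17.5, Ccne2 averaged 6.01 ± 0.13 in TKO and 5.79 ± 0.19 in control lenses, a difference of 0.22 ± 0.10 (adjusted p 0.205), and 0.28 ± 0.12 without replicates 24 and 27 (adjusted p 0.113).

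For Ccne1, the brightest probe set, 1441910_x_at, had 6.57, 6.65, 6.60, 6.55 and 6.59 in TKO P0 arrays and 6.26, 6.16, 6.12, 6.37 and 6.65 in control P0 arrays. Control replicate 8 lay at the level of the TKO arrays, and the other controls lay below them all. The difference was 0.28 ± 0.09 (adjusted p 0.0307), and 0.37 ± 0.06 without control replicate 8 (adjusted p 0.00241). Leaving out any of TKO replicates 17, 18 and 19 or control replicates 1, 5 and 6 ended the call, at 0.24 to 0.29 (adjusted p 0.0533 to 0.0758), as did the fit on all 20 arrays (adjusted p 0.0978). The other probe set, 1416492_at, gave 0.62 ± 0.12 at P0 (adjusted p 0.00259). At E17.5, Ccne1 differed by 0.03 ± 0.15 (adjusted p 0.908), its TKO arrays spreading between 6.16 and 7.09 around controls at 6.51 to 6.62. Without replicates 24 and 27 the difference was 0.13 ± 0.14 (adjusted p 0.533).

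Cdk2, the kinase that cyclins E and A activate, was higher in every TKO array at P0. It had 7.45, 7.49, 7.38, 7.42 and 7.65 in TKO arrays, against 6.77, 6.64, 6.88, 6.53 and 6.72 in control arrays. The difference was 0.77 ± 0.08 (1.71-fold, adjusted p 0.000118). At E17.5 the values were 7.60, 8.24, 8.13, 7.28 and 8.12 in TKO replicates 24 to 28 and 6.81, 7.30, 7.18, 7.14 and 7.35 in controls. TKO replicate 27 lay below 2 controls, and the other TKO arrays were above all of them. The difference of 0.72 ± 0.18 was not called in the test by gene (adjusted p 0.0610). It was called when the same probe set was tested among all 23863 probe sets (adjusted p 0.0434), in the fit on all 20 arrays (adjusted p 0.00625, where 13% of all genes were called), without replicate 27 (0.87, adjusted p 0.0115) and without replicates 24 and 27 (1.01 ± 0.12, adjusted p 0.00119). By gene, 3 of 17 alternatives thus gave a call. The others, among them quantile normalization, median centring and both filter changes, did not (adjusted p up to 0.139). Nor did leaving out any single array other than replicate 27. Cdk2 rested on a single tested probe set, 1416873_a_at. It was not tested with averaged probe sets or without _x_, _s_ and _a_ probe sets.

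Cdc25a, a phosphatase that activates Cdk2 by removing inhibitory phosphates, had the largest difference of the 10 genes at both stages by the brightest probe set of each gene, although 1416124_at of Ccnd2 gave more, as did Ccnd2 at P0 with the retina covariate. At P0, probe set 1417131_at was at 7.90, 7.92, 7.60, 7.42 and 7.94 in TKO arrays, against 6.69, 6.89, 6.74, 6.51 and 6.53 in control arrays. No arrays overlapped, and the difference was 1.08 ± 0.12 (2.12-fold, adjusted p 0.000171), with 1.10 ± 0.15 from the second tested probe set. At E17.5 it had 7.94, 8.82, 8.44, 7.59 and 8.17 in TKO replicates 24 to 28, against 7.23, 7.43, 7.41, 7.56 and 7.37 in controls. It was the only one of the 10 genes whose groups did not overlap at E17.5 in the test by gene (4% of all genes did not overlap and were higher), and the lowest TKO array was just above the highest control. The difference of 0.79 ± 0.19 had an adjusted p of 0.0548. It was called among all probe sets (adjusted p 0.0366), after quantile normalization (0.76, adjusted p 0.0436), with the stricter filter (adjusted p 0.0463), in the fit on all 20 arrays (adjusted p 0.00753), without replicate 27 (0.94, adjusted p 0.0108) and without replicates 24 and 27 (1.08 ± 0.14, adjusted p 0.00161). By gene, 5 of 19 alternatives thus gave a call. The others, among them median centring, no filter and averaged probe sets, did not (adjusted p up to 0.124). Nor did leaving out any single array other than replicate 27. The second tested probe set, 1417132_at, gave 0.59 ± 0.17 at E17.5 and was not called (adjusted p 0.0646).

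Ccna2 (cyclin A2), which acts with Cdk2 in S phase, was higher in TKO lenses at P0 and lower at P0 than at E17.5 in both genotypes. It had 7.49, 7.58, 7.41, 7.83 and 8.01 in TKO P0 arrays, against 7.04, 6.90, 6.81, 6.58 and 7.58 in control P0 arrays. Control replicate 8 overlapped the TKO range, and the others lay below it. The difference was 0.68 ± 0.18 (1.6-fold, adjusted p 0.0106), and the second probe set gave 0.89 ± 0.21. At E17.5, Ccna2 was at 7.88, 8.59, 8.35, 7.97 and 8.10 in TKO arrays and 7.98, 8.31, 8.10, 8.31 and 8.04 in controls. The groups overlapped almost fully, with a difference of 0.03 ± 0.13 (95% interval -0.27 to 0.32, adjusted p 0.905), and 0.20 ± 0.13 without replicates 24 and 27 (adjusted p 0.273).

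Tested as single probe sets at E17.5, 4 of the 25 were called higher and none lower, where 4.43% of all probe sets were higher and 2.21% lower. These were the 2 Ccnd2 sets, the Cdk2 set and 1417131_at of Cdc25a. Without replicates 24 and 27, a fit for probe sets added after seeing the data, 18 of 25 were higher and none lower, where 13.7% of all probe sets were higher and 9.35% lower. At P0, 21 of 25 were higher and none lower, where 18.8% of all probe sets were higher and 19.7% lower. In 10 of the 25 the groups did not overlap (12.5% of all probe sets did not overlap and were higher).

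The difference between the E17.5 and P0 effects was then tested directly, in 1 fit on all 20 arrays. None of the 10 genes was called by limma, where 0.177% of all genes were called. An unadjusted p below 0.05 was found for 2 of the 10 and for 15.7% of all genes. The estimates for Ccna2 (0.65 ± 0.23, adjusted p 0.197) and Ccne2 (0.27 ± 0.12, adjusted p 0.287) were the ones whose 95% intervals lay above 0. For Cdk2 the P0 effect minus the E17.5 effect was 0.05 ± 0.21, with an interval of -0.38 to 0.49. The calls at P0 beside none at E17.5 therefore do not show that the effects differed between the stages.

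The 5 TKO E17.5 arrays spread widely in these genes. Set against the control mean of their stage, the median difference over the 10 genes was 0.11 in replicate 24, 0.79 in 25, 0.53 in 26, -0.13 in 27 and 0.41 in 28. Replicate 25 was the highest TKO array in 9 of 10 genes and replicate 27 the lowest in 7 of 10. At P0 the same medians lay between 0.48 and 0.75 in all 5 TKO arrays. Without replicates 24 and 27, 6 of the 10 genes were called higher at E17.5 (Ccnd1, Ccnd2, Cdk4, Cdk6, Cdk2 and Cdc25a), while Ccnd3, Ccne1, Ccne2 and Ccna2 were not. In that fit 13.8% of all genes were called higher and 11.1% lower, and 2953 of all 11859 genes were called in either direction, instead of 343.

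Markers of other eye tissue moved in the same arrays. The mean of 16 tested retina progenitor and neuron markers, out of a list of 20, was 6.09, 8.42, 8.02, 6.57 and 7.30 in TKO E17.5 replicates 24 to 28, and 6.01 to 7.04 in control E17.5 arrays. At P0 it was 6.90 to 7.93 in TKO and 4.89 to 6.54 in control lenses, and 14 of the 16 were called higher. The P0 counts of this list and the next ones stand beside 20.2% of all genes called higher and 19.4% lower. Among the defining genes, Rcvrn (recoverin, of photoreceptors) was above the array median in no array, Nrl (a rod factor) was above it in 5 of 5 TKO P0, 1 of 5 control P0 and no E17.5 arrays, and Six6 lay at 7.996 to 8.82 in TKO P0 and 4.70 to 7.17 in control P0 lenses. Pigment cell markers were higher at P0 in 6 of 7 and macrophage markers in 4 of 6, with list means of 7.56 to 8.49 in TKO and 6.38 to 7.01 in control lenses for pigment cells and 6.68 to 7.62 in TKO and 5.84 to 6.99 in control lenses for macrophages. Lens epithelium markers were lower in 4 of 6 and higher in 1, with list means of 8.08 to 9.30 in TKO and 9.27 to 9.69 in control P0 lenses, while none of 10 lens fibre markers and none of 7 endothelium markers was called by limma (0 at an unadjusted p below 0.05 in either list). At E17.5, TKO replicate 28 had macrophage and endothelium list means of 8.38 and 8.12, where TKO replicates 24 to 27 had at most 7.24 and 6.70. Its lens epithelium and lens fibre means were 8.44 and 13.99, where those replicates had at least 9.37 and 14.17. Pigment cell means were 6.22, 8.02, 7.61, 6.03 and 8.06 in TKO E17.5 replicates 24 to 28, and 6.44 to 7.06 in controls. No marker of these lists was called at E17.5 by limma, beside 2.89% of all genes. Without replicates 24 and 27, 11 of 16 retina and 5 of 7 pigment cell markers were called higher. In that fit 1 of 6 lens epithelium markers was higher and 1 lower, beside 13.8% and 11.1% of all genes. A sign of RNA quality also differed, the 5′ minus 3′ signal of the Gapdh control probe sets, which was 0.10 to 0.20 in TKO and -0.06 to 0.06 in control lenses over both stages. The same measure of the actin control probe sets overlapped, at -1.01 to -0.71 in TKO and -1.005 to -0.86 in control lenses at E17.5 and at -0.95 to -0.70 in TKO and -1.03 to -0.87 in control lenses at P0. The part of RNA quality in the results was not tested, and that of the other markers was not tested beyond the fit with a covariate described next.

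With the retina marker mean as a covariate, 5 of the 10 genes stayed called at P0, where 3.4% of all genes were higher. At P0 the covariate did not overlap between genotypes (6.90 to 7.93 in TKO, 4.89 to 6.54 in control lenses). A call kept or lost in this fit therefore does not separate genotype from retina content. Standard errors also grew, that of Cdc25a from 0.12 to 0.21. Cdc25a was then 1.07 ± 0.21 (adjusted p 0.0298), Cdk2 0.63 ± 0.13 (adjusted p 0.0329), Cdk6 0.70 ± 0.16 (adjusted p 0.0414), Ccne2 0.61 ± 0.12 (adjusted p 0.0284) and Ccnd2 1.18 ± 0.28 (adjusted p 0.0449). Ccnd1 was at 0.12 ± 0.19 (adjusted p 0.753). Ccna2 (0.59, adjusted p 0.274), Cdk4 (0.28, adjusted p 0.331) and Ccne1 (0.47, adjusted p 0.0981) also lost their calls, and 574 of all genes were called instead of 4700. Without the covariate, Ccnd1, Ccna2, Cdk4 and Ccne1 differed by 0.70, 0.68, 0.30 and 0.28. At E17.5 with the covariate, Cdc25a was 0.56 ± 0.14 (adjusted p 0.0947), Cdk2 0.56 ± 0.18 (adjusted p 0.139), Ccnd1 -0.05 ± 0.08 (adjusted p 0.758) and Ccna2 -0.14 ± 0.09 (adjusted p 0.373). TKO P0 replicate 21, which had the highest retina marker mean of its group, also had the highest Ccnd1 and the lowest Ccnd2 values.

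**Figure D4:**
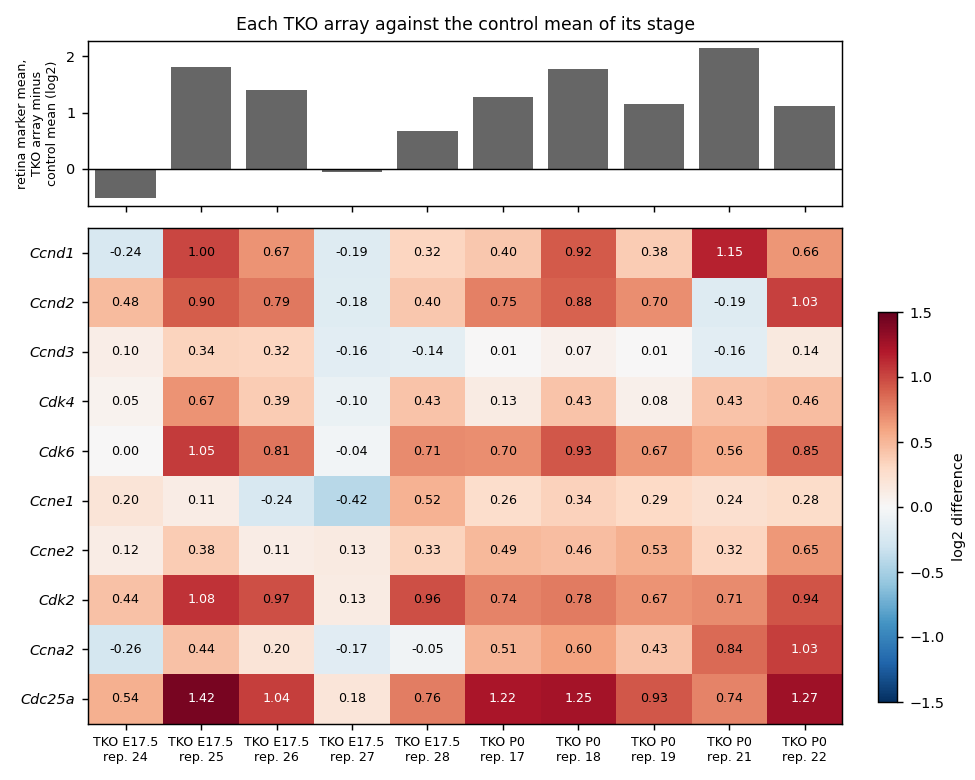
Log2 difference of each TKO array from the control mean of its stage, for the 10 genes (colour and number), with the same difference for the mean of the retina markers above (bars). E17.5 replicates 25 and 26 are high in both panels, replicates 24 and 27 are near or below 0 in the upper panel, and P0 replicate 21 has the highest bar, the highest Ccnd1 and the lowest Ccnd2 of its group.

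Between E17.5 and birth, most of these genes fell in control lenses. Lower levels at P0 than at E17.5 were called for 8 of the 10 in controls, where 24.9% of all genes were lower, and for 3 of the 10 in TKO lenses, where 8.77% were lower. None rose in either genotype, where 5.8% of all genes in TKO and 12.5% in control lenses were higher. The 4 comparisons share arrays pairwise, so the stage and genotype differences are not independent of each other, and the difference between the genotypes in the stage change is the same contrast as the difference of effects given above, in which none was called.

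Ccna2 had the largest fall of the 10 in controls, with 7.04, 6.90, 6.81, 6.58 and 7.58 at P0, against 7.98, 8.31, 8.10, 8.31 and 8.04 at E17.5. The stages did not overlap, and the difference was -1.16 ± 0.16 (adjusted p 0.000352). In TKO lenses Ccna2 differed by -0.51 ± 0.16 (adjusted p 0.0491), with overlap between the stages. Ccne2 fell in both genotypes without overlap, with differences of -0.55 ± 0.09 in TKO lenses (adjusted p 0.0078) and -0.82 ± 0.08 in control lenses (adjusted p 9.52e-05). Cdk4 also fell in both, with -0.50 ± 0.15 in TKO lenses (adjusted p 0.0454) and -0.51 ± 0.07 in control lenses (adjusted p 0.000268). These falls stood beside retina marker means that were lower at P0 in controls (4.89 to 6.54 at P0, 6.01 to 7.04 at E17.5). In TKO lenses the same means overlapped, at 6.90 to 7.93 at P0 and 6.09 to 8.42 at E17.5. By limma, 3 of 6 lens epithelium markers were lower and 1 of 16 retina markers higher at P0 in TKO lenses. Of all genes there, 8.77% were lower and 5.8% higher. In controls, 7 of 16 retina, 3 of 6 macrophage and 1 of 7 pigment cell markers were lower. Among fibre markers 5 of 10 were higher, where 24.9% of all genes were lower and 12.5% higher. The part of these other markers in the falls was not tested. With the retina covariate, Ccna2, Ccne2 and Cdk4 stayed called lower in TKO lenses, where 1210 of all 11859 genes were lower. In control lenses, 7 of the 10 genes stayed called lower, where 2363 of all genes were lower, and Ccnd1 lost its call.

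The calls of Ccna2 and Cdk4 in TKO lenses depended on the arrays included. Each was lost in 7 of 10 fits that left out 1 array: Ccna2 without TKO E17.5 replicate 25, 26 or 27 or P0 replicate 17, 18, 19 or 21 (-0.56 to -0.41, adjusted p 0.0531 to 0.122), and Cdk4 without E17.5 replicate 25, 26 or 28 or the same P0 replicates (-0.53 to -0.40, adjusted p 0.0595 to 0.114). Both were also lost after quantile normalization (adjusted p 0.0648 and 0.0663). Without E17.5 replicates 24 and 27, 5 of the 10 genes were called lower in TKO lenses. Cdk2 at -0.68 (adjusted p 0.00636) and Cdc25a at -0.72 (adjusted p 0.0252) were added. Of all 11859 genes, 1268 were lower and 650 higher there. These arrays were picked for their likeness to controls, so the added calls are a description. Cdk6 turned to -0.20 in that fit and was not called. Without replicate 27 alone, Cdk2 was called at -0.54 (adjusted p 0.0336).

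In control lenses, 3 more genes fell, Cdc25a with a difference of -0.73 ± 0.08 (adjusted p 0.000143), Ccnd2 with -0.73 ± 0.08 (adjusted p 9.97e-05) and Cdk2 with -0.45 ± 0.10 (adjusted p 0.0057). In TKO lenses, the same 3 gave -0.43 ± 0.21, -0.57 ± 0.25 and -0.39 ± 0.17, none called. Smaller falls in controls were called for Ccnd1 (-0.41 ± 0.15, adjusted p 0.0458) and Ccne1 (-0.26 ± 0.09, adjusted p 0.0381). The Ccnd1 call was lost in 7 and the Ccne1 call in 9 of 10 fits without 1 array, at -0.44 to -0.33 for Ccnd1 (adjusted p 0.0519 to 0.104) and -0.28 to -0.21 for Ccne1 (adjusted p 0.0543 to 0.0844). The fits that kept them left out control E17.5 replicate 12 or 15 or P0 replicate 1 for Ccnd1, and P0 replicate 8 for Ccne1. Both calls were also lost after quantile normalization, with no filter and in the fit on all 20 arrays. With the retina covariate, Ccnd1 gave -0.11 in controls (adjusted p 0.502). Ccnd3 and Cdk6 did not pass the test in either genotype, Cdk6 differing by 0.15 ± 0.20 in TKO and -0.08 ± 0.09 in control lenses.

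**Figure D5:**
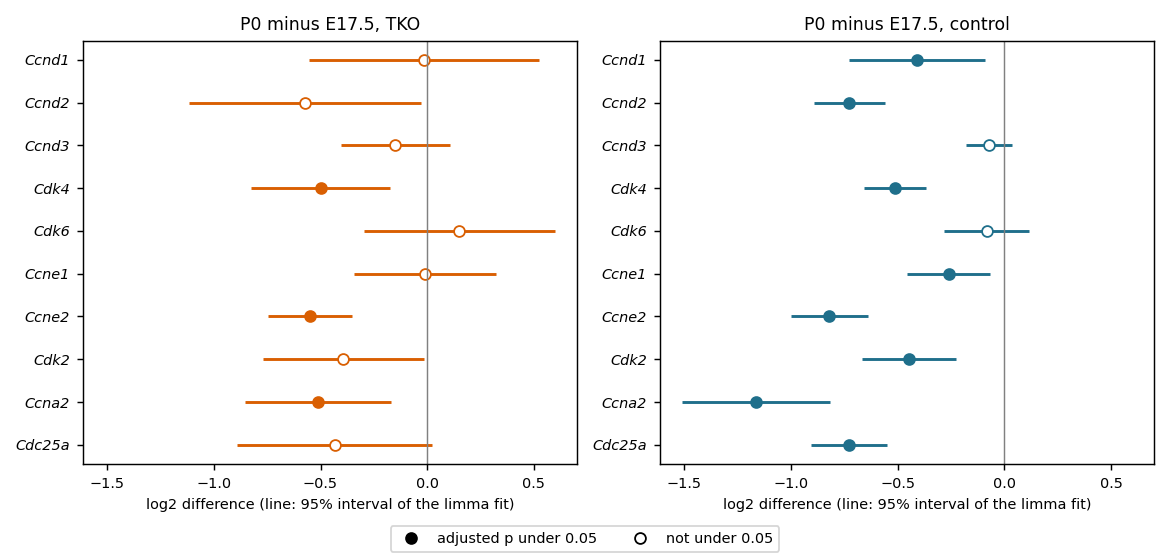
P0 minus E17.5 log2 differences of the 10 genes in TKO (left) and control (right) lenses; points are limma estimates, lines their 95% intervals, and filled points have an adjusted p below 0.05. In control lenses 8 points are filled and in TKO lenses 3, all left of 0.

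Other genes that act on these kinases were described from lists of the pathway. Of 17 tested genes of kinase activation and cyclin turnover, 12 were higher and 1 lower in TKO lenses at P0, beside 20.2% and 19.4% of all genes. Cks2, a small kinase-binding subunit, was higher by 1.34 ± 0.14 (adjusted p 0.000166) and Dtl, a substrate receptor of a ubiquitin ligase that acts in S phase, by 1.12 ± 0.16 (adjusted p 0.000521). Cdk7, the kinase that phosphorylates the activating loop of cell cycle kinases, was higher by 0.40 ± 0.06, and Fbxo31, an F-box protein that targets cyclin D1 for destruction, was lower by 0.33 on the log2 scale (adjusted p 0.00188). At E17.5 only Ccnh, the cyclin partner of Cdk7 (0.31 ± 0.06, adjusted p 0.0270), and Cdc25c, a mitotic phosphatase (0.29 ± 0.06, adjusted p 0.0398), were called among the 17, beside 2.89% of all genes. Without replicates 24 and 27 they were at 0.29 and 0.25 and still called, and 10 of the 17 were higher and none lower, beside 13.8% and 11.1% of all genes. Skp2, an F-box protein that targets p27, fell between the stages with differences of -1.23 ± 0.20 in TKO and -0.997 ± 0.09 in control lenses.

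Among 6 tested genes of kinase inhibitors, 1 was higher and 2 were lower at P0 (20.2% and 19.4% of all genes). Cdkn1a (p21), which inhibits Cdk2, was higher by 1.86 ± 0.40 (adjusted p 0.00422), with means of 7.60 ± 1.03 in TKO and 5.74 ± 0.15 in control lenses. Cdkn1b (p27) was lower, at 8.19 ± 0.44 in TKO and 8.75 ± 0.18 in control lenses, a difference of -0.56 ± 0.18 (adjusted p 0.0331), and Cdkn1c (p57) by -0.31 ± 0.11 (adjusted p 0.0399). Of the 3 pocket protein genes, which encode the targets of the D-cyclin kinases, Rbl1 was higher by 0.54 ± 0.16 (adjusted p 0.0192) and Rb1 lower, with a difference of -0.38 ± 0.10 (adjusted p 0.0110). The G2 and M genes Cdk1, the mitotic kinase, and Ccnb2, a cyclin B, were higher by 1.34 ± 0.19 and 1.09 ± 0.22, and 2 of the 3 tested genes of that list passed. At E17.5 none of these 12 genes was called by limma in either direction, beside 2.89% of all genes. An unadjusted p below 0.05 was found for 3 inhibitors, 2 pocket proteins and 1 G2 and M gene, beside 25.6% of all genes. Cdk1 differed by 0.65 ± 0.17 (adjusted p 0.0654) and Cdkn1a by 1.56 ± 0.46 (adjusted p 0.0804). Without replicates 24 and 27, Cdk1 was at 0.91 ± 0.12 (adjusted p 0.00177) and Cdkn1a at 2.25 ± 0.18 (adjusted p 0.00046). In that fit 1 inhibitor gene was higher and 2 were lower, and 1 gene of each of the other lists was higher. Of all genes, 13.8% were higher and 11.1% lower in it.

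The genes whose pattern over the 20 arrays was most like that of each cyclin or kinase were found by Pearson correlation, as a description, since the arrays fall into 4 groups. Cdk2 was nearest to Cdc25a (r = 0.95, and 0.78 after group means were removed), and Cdc25a to Mcm5, a subunit of the replicative helicase (0.96 and 0.86). Ccna2 was nearest to Top2a, topoisomerase II alpha (0.98 and 0.95). Ccnd1 was nearest to Hes6, a transcription factor of neural progenitors (0.96 and 0.94), Ccne2 to Npm1, nucleophosmin (0.96 and 0.80), and Cdk4 to Rbmxl1 (0.98 and 0.92). Cdk6 was nearest to Nexmif (0.95 and 0.91) and Ccnd2 to AU020206 (0.95 and 0.83). The weakest were Ccne1 with Prdx2 (0.84 and 0.81) and Ccnd3 with Lpgat1 (0.82 and 0.86). Over the 45 pairs of the 10 genes, r over 20 arrays ran between 0.02 and 0.95 with a median of 0.61, and after removal of group means between -0.16 and 0.88 with a median of 0.49. All values of an array share its RNA and its normalization.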

How the data were processed

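The authors deposited a log2 value for each probe set on each array, all present and between 1.72 and 15.0. The log2 scale was read from the values. Background correction, probe summary and normalization were not given in the sources used here. The values were used as deposited. Array medians differed by at most 0.196, and no pair of arrays shared more than 0.142% of its values.

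Of the probe sets, 34945 had exactly 1 gene in the platform annotation, with 34741 symbols updated through RefSeq by Entrez identifier. The probe set of highest mean level over the arrays stood for a gene, which was tested where it lay above the array median in at least 5 arrays, which left 11859 genes, or 23863 probe sets for the tests by probe set. Two-sided tests used limma (3.58.1, R 4.3.3), with lmFit and eBayes on the groups compared, and Benjamini-Hochberg adjustment over all genes or probe sets. Errors beside differences are standard errors. Fits of 2 groups were used because the spread differs between groups.

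The 10 genes, the lists, the named-gene rule (all 10 genes with every probe set, E2f1 to E2f3, up to 3 rises and 3 falls per list by smallest adjusted p, and the nearest gene by correlation) and the tests were chosen with earlier results of these data known. Alternatives were quantile normalization, median centring, no filter or a stricter one at the 75th percentile, averaging the probe sets of each gene, leaving out probe sets with _x_, _s_ or _a_ in their name, 1 spread over 20 arrays, the retina covariate, and leaving out replicates. The fits without TKO E17.5 replicates 24 and 27 for probe sets and for other gene lists were added after seeing the data. The p-values measure the spread between mice and treat the mice as independent. The labels give no litter, sex or batch, so whether mice of a group shared a litter or a batch is not known.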

Additional observations from a re-analysis of the deposited data

Results flagged for a closer look

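A sample was looked at again where its gap to the nearest array of its group of 5 was large against the range of that group (Dixon's ratio above 0.71). This was so for 7 of 100 groups of 5 values examined, and chance gives about 1 in 20. TKO P0 replicate 21 accounted for 6 of them. Its Ccnd2 values were 5.829 for probe set 1416123_at (others 6.857 to 7.004), 9.39 for 1430127_a_at (others 10.32 to 10.68), 10.35 for 1434745_at (others 11.24 to 11.57), 7.9 for 1448229_s_at (others 8.906 to 9.213) and 9.142 for 1455956_x_at (others 10.11 to 10.37). These 5 probe sets measure the same gene in the same RNA and are not independent. Its Cdc25a probe set 1417132_at was at 6.529 (others 6.892 to 6.995). In the control E17.5 group, replicate 10 had 9.317 for the Cdk4 probe set 1422440_at, with the others at 9.56 to 9.653.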

How the results depend on the processing

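Of 400 tests of single genes under alternatives other than leaving out 1 array, 369 kept their side of the threshold, 14 gained a call and 17 lost it, and of 600 with 1 array left out these numbers were 556, 4 and 40, with no called value reversed. At E17.5, 343 genes and 0 of the 10 were called. These became 580 and 1 after quantile normalization, where 35.7% of the calls were higher in TKO instead of 54.8%, and 197 genes after median centring, with 75.6% higher. They were 1541 and 2 with all 20 arrays in the fit, 2953 and 6 without replicates 24 and 27 (with 18 instead of 4 of their 25 probe sets), and 92 genes with the retina covariate, and 1 of the 10 was called with the stricter filter. With 1 array left out, 49 to 1129 genes and 0 to 3 of the 10 were called, with 113 without TKO replicate 25, 67 without 26, 1129 without 27, 724 without 28 and 49 to 96 without any 1 control. At P0, 4700 genes and 9 of the 10 became 574 and 5 with the retina covariate, and 3671 to 5071 and 6 to 9 with 1 array left out. The difference of effects, with 21 genes, gave 1 with the covariate, 45 without replicates 24 and 27, and 0 to 321 with 1 array left out, and 0 to 0 of the 10. For P0 against E17.5 in TKO lenses, 1728 genes and 3 of the 10 were called. These became 2644 genes with no filter, 884 and 1 with the stricter filter, and 3940 and 5 with all 20 arrays. They were 1583 and 1 after quantile normalization, and 1918 and 5 without replicates 24 and 27. With 1 array left out they were 440 to 2716 and 1 to 3. In control lenses, 4431 genes became 2046 with all 20 arrays, and 3669 to 4443 genes and 6 to 7 of the 10 with 1 array left out. A stricter filter tests fewer genes and a left-out array leaves fewer samples; the cause of the other moves was not tested. No paired analysis was possible because the labels give no litter or other pairing of the mice. The number of arrays and, for dim probe sets, signal over background limit the precision.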

Other observations

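Of 13 tested genes of cyclins and kinases outside G1 and S, 2 were higher and 3 lower in TKO than in control lenses at P0, beside 20.2% and 19.4% of all genes. The higher ones were the cyclin G genes Ccng1 (0.50 ± 0.13, limma adjusted p 0.0133) and Ccng2 (0.49 ± 0.18, adjusted p 0.0464). The lower ones were Cdk16 (-0.24 ± 0.05, adjusted p 0.00508), Cdk8 of the mediator complex (-0.21 ± 0.07, adjusted p 0.0243) and Cdk13 (-0.26 ± 0.09, adjusted p 0.0411). The median of the 13 was 0.01. At E17.5 none of the 13 was called by limma and 5 had an unadjusted p below 0.05, beside 2.89% and 25.6% of all genes. Without TKO replicates 24 and 27, 3 of the 13 were higher and none lower at E17.5, beside 13.8% and 11.1% of all genes. Between E17.5 and birth, Ccnc, Ccnt2 and Cdk5 fell in both genotypes, Ccnt2 with differences of -0.74 ± 0.16 in TKO lenses (adjusted p 0.0189) and -0.28 ± 0.06 in control lenses (adjusted p 0.00307).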
